A study of Mus musculus with 12 samples.

Results

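The 9 genes described here belong to the contractile apparatus of smooth muscle and were followed across mouse aorta. The rule named 10 genes by symbol (Acta2, Myh11, Cnn1, Cald1, Tagln, Smtn, Lmod1, Actg2, Mylk and Kcnmb1), and 9 of the 10 were among the 3534 genes listed for each library. Actg2 was not analysed here. The rule goes by the genes' known role and uses no measured value, but the members were chosen with earlier results of these data known.

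The study sequenced mRNA from the aorta of mice, as a model of diabetes induced by diet. The HSAPN group is labelled as a knockdown of APPL1, an adaptor protein known for binding adiponectin receptors, in mice fed a high-fat diet. The HAPN group carried the WT genotype and received the high-fat diet, as did the HFD group. The WT group carried the WT genotype and received a normal diet. Diets ran for 12 weeks, and fat made up 60% of the calories of the high-fat diet. The sources used here do not say what sets HAPN apart from HFD, how APPL1 was knocked down and in which cells, or how old the animals were. Each group has 3 deposited samples, but the values of HFD replicates 1 and 2 were identical and were counted as 1 library, which left 3 HSAPN, 3 HAPN, 2 HFD and 3 WT libraries. Whether replicates came from separate animals is not stated, so p-values measure only the spread between these samples. Appl1 was not analysed here, so the knockdown was not checked on its target.

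Vascular smooth muscle cells fill the wall of the aorta and set its tone. Calcium entering the cell activates myosin light chain kinase, which phosphorylates the myosin light chains, and smooth muscle myosin then pulls on filaments of smooth muscle α-actin. In mature cells the genes of this machinery are switched on by serum response factor and its coactivator myocardin, which act at a short DNA element, the CArG box. Cells that lose the contractile state are known to lower these genes and to make more matrix.

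The window from 250 bases before to 50 bases after a RefSeq start of Acta2 is shown because it is the one member window that held CArG-like elements. It lies at chr19:34255324-34255623 on the minus strand of GRCm38.p6 and is given 5′ to 3′ from RefSeq, with the elements in capitals.
Acta2 promoter: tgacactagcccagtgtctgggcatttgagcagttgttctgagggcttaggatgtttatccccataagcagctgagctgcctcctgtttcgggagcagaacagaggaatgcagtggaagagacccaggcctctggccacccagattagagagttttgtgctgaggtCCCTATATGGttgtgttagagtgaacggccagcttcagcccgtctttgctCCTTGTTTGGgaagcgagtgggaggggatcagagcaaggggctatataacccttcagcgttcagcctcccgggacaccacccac
The search asked for CC, then 6 bases of A or T, then GG, a pattern that reads the same on both strands, and was repeated with 1 other base allowed among the 6. The first box in capitals begins 84 bases before the start and the second 34 bases before it, and each holds 1 base other than A or T. These distances are from the start that the window was set on, which lies inside the gene span given below for Acta2. The stretch tatataa comes after that start, and distances from another start would differ. Windows were read for 7 of the 9 genes, 8 windows in all because Cald1 has 2, and none was read for Myh11 and Tagln. The windows of Mylk and Smtn and 1 of Cald1 lie wholly inside the gene spans given below, so other starts of these genes were not read. The exact pattern was in 0 of the 8 windows and in 1.63% of 32851 mouse promoter windows of the same length. The looser pattern was in 1 of the 8 windows and in 9.98% of all. A match is a description of these letters only.

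The deposited values are FPKM, fragment counts scaled to transcript length and to library depth. They correspond to an estimated 15610000 to 17840000 reads per library. The 3407 listed symbols that matched 1 annotated gene hold 12.0 to 17.6% of these. In a bulk sample, fewer muscle cells and less RNA per muscle cell cannot be told apart. The labelled tissue was checked against markers. Smooth muscle genes were present in every library, and 1 of 15 endothelial markers (Mmrn2) was in the table at 1.17 to 9.71 FPKM. Genes of airway epithelium, heart muscle and fat were also present at levels that differed widely between libraries of the same group. The rule that chose the listed genes is not given, so the level of a marker not among them is unknown.

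Acta2 was the most abundant member in all 11 libraries. Its median level over the libraries was 294 FPKM, followed by Cnn1 at 68.1, Myh11 at 49.5, Mylk at 29.3, Cald1 at 12.2, Smtn at 10.3, Lmod1 at 6.74, Kcnmb1 at 3.27 and Tagln at 0.449 FPKM. FPKM is scaled to transcript length, so levels can be set beside each other between genes. Ranges over the libraries of neighbouring genes in this order overlapped, with exceptions for Mylk, whose lowest library at 19.4 FPKM was above the highest of Cald1 at 15.4 FPKM, and for Tagln, which overlapped with Kcnmb1 only through WT replicate 2. Below, values run in replicate order, and the HFD library deposited as replicates 1 and 2 stands before HFD replicate 3.

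Acta2, smooth muscle α-actin, forms the thin filament (ENSMUSG00000035783, chr19:34241090-34255590, minus strand, GRCm38). It stood at 162, 241 and 294 FPKM in HSAPN, 312, 235 and 165 FPKM in HAPN, 466 and 146 FPKM in HFD, and 354, 1607 and 421 FPKM in WT. WT replicate 2 was 6.01 times the median of the other 10 libraries. All HSAPN and HAPN libraries lay below the lowest WT library, whereas the HFD libraries lay on either side of WT replicates 1 and 3. Actins are near-identical in sequence, and the sources used here do not say how reads shared between them were counted.

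Myh11, the heavy chain of smooth muscle myosin and so the motor of the thick filament (ENSMUSG00000018830, chr16:14194535-14291372, minus strand), ranked the libraries of each group in the same order as Acta2. It stood at 26.2, 36.7 and 42.6 FPKM in HSAPN, 58.7, 49.5 and 28.3 FPKM in HAPN, 77.3 and 15.5 FPKM in HFD, and 54.5, 236 and 77.7 FPKM in WT. HSAPN lay wholly below WT, while HAPN replicate 1 was above WT replicate 1. Mylk, the light chain kinase (ENSMUSG00000022836, chr16:34745210-35002420, plus strand), varied less. It stood at 29.3, 27.1 and 30.0 FPKM in HSAPN, 23.9, 31.9 and 22.9 FPKM in HAPN, 38.9 and 19.4 FPKM in HFD, and 23.3, 64.3 and 41.4 FPKM in WT. WT replicate 1 fell within or below the range of every high-fat group, so no group was separate from WT.

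Cnn1, calponin, binds actin and restrains the myosin ATPase (ENSMUSG00000001349, chr9:22099216-22109630, plus strand). It stood at 34.3, 31.0 and 68.1 FPKM in HSAPN, 77.3, 47.8 and 25.0 FPKM in HAPN, 140 and 23.9 FPKM in HFD, and 149, 437 and 92.7 FPKM in WT. It was the member with the widest spread, an 18.3-fold ratio of the highest library to the lowest, and both HSAPN and HAPN lay wholly below WT. Cald1, caldesmon, is another inhibitor on the actin filament, and unlike Cnn1 it is also made in non-muscle cells (ENSMUSG00000029761, chr6:34598500-34775473, plus strand). It stood at 11.2, 14.2 and 12.5 FPKM in HSAPN, 9.55, 11.02 and 8.87 FPKM in HAPN, 15.4 and 12.3 FPKM in HFD, and 10.8, 14.2 and 12.2 FPKM in WT. Its spread was 1.74-fold, the narrowest of the 9 genes, and its highest library was the HFD library deposited as replicates 1 and 2, not WT replicate 2.

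Smtn encodes smoothelin, an actin-bound protein of contractile smooth muscle (ENSMUSG00000020439, chr11:3517523-3540612, minus strand). It stood at 10.04, 9.27 and 10.15 FPKM in HSAPN, 9.58, 11.2 and 11.1 FPKM in HAPN, 18.2 and 8.32 FPKM in HFD, and 10.3, 41.7 and 15.4 FPKM in WT. The HSAPN libraries lay below WT replicate 1 by little, and HAPN overlapped with it. Lmod1, leiomodin, nucleates actin filaments (ENSMUSG00000048096, chr1:135324807-135368065, plus strand). It stood at 4.63, 5.14 and 6.74 FPKM in HSAPN, 7.79, 6.60 and 5.12 FPKM in HAPN, 11.3 and 3.20 FPKM in HFD, and 8.12, 29.2 and 9.09 FPKM in WT. HSAPN and HAPN both lay below WT, and the HFD libraries lay on either side of WT replicates 1 and 3.

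Kcnmb1, the β subunit that makes the large-conductance potassium channel more sensitive to calcium and so favours relaxation (ENSMUSG00000020155, chr11:33963013-33973641, plus strand), was one of the most variable members within groups. It stood at 1.51, 1.85 and 7.21 FPKM in HSAPN, 3.22, 3.27 and 1.14 FPKM in HAPN, 8.97 and 1.06 FPKM in HFD, and 4.13, 14.7 and 6.68 FPKM in WT. HAPN lay below WT, and HSAPN replicate 3 lay inside the WT range.

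Tagln, SM22α, is an actin-bundling protein known as one of the most abundant smooth muscle transcripts (ENSMUSG00000032085, chr9:45929619-45936058, minus strand). Here it was listed at 0.342, 0.430 and 0.424 FPKM in HSAPN, 0.279, 0.367 and 0.449 FPKM in HAPN, 0.569 and 0.544 FPKM in HFD, and 0.805, 3.32 and 0.621 FPKM in WT. It thus stood at 0.0893 to 0.372% of Acta2, and its values correspond to 9 to 118 reads per library. Of its 1988 exonic bases, 67.9% are shared with genes on the opposite strand, 62.4% with Gm48529 and 5.4% with Pcsk7. The share is 16.3% for Smtn, 6.9% for Mylk and 0 for the other members. The strand setting of the counting is unknown from the sources used here, and the part of this overlap in the level of Tagln was not tested. Tagln reached 1 FPKM in 1 library and did not pass the filter of 1 FPKM in 3 libraries, so 8 of the 9 members were tested.

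**Figure D1:**
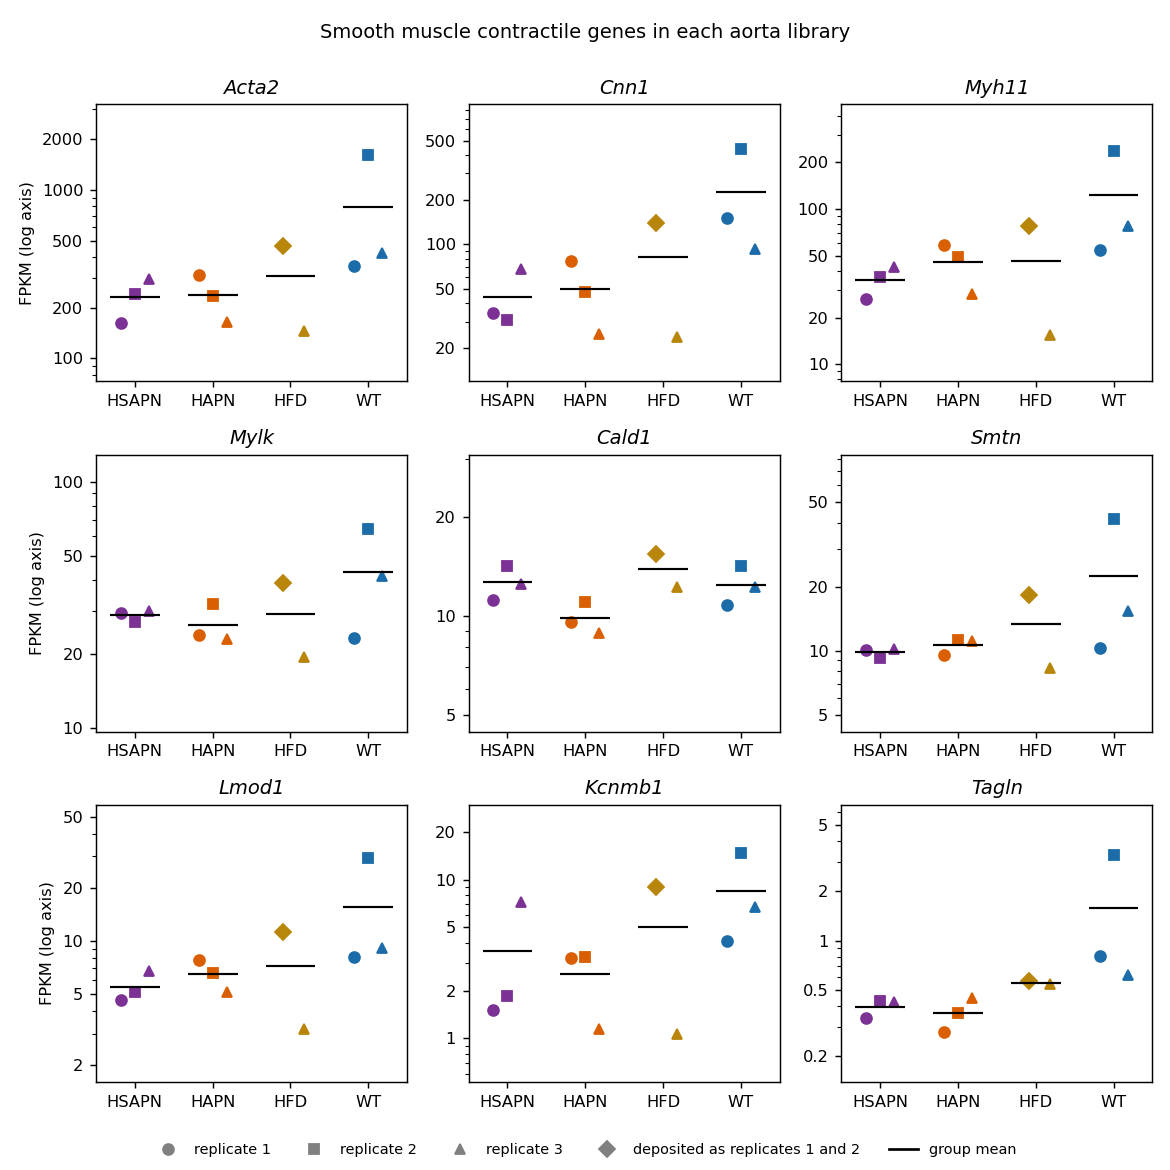
FPKM of each of the 9 contractile genes on a log axis, with 1 point per library and a horizontal line at the group mean, for HSAPN, HAPN, HFD and WT. WT replicate 2 is the highest point for every gene but Cald1, and HFD replicate 3 is the lowest for 7 of the 9.

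Single libraries stood apart in most members at once. WT replicate 2 was the highest library in 8 of the 9 genes, and it was the highest in 21.6% of all tested genes. HFD replicate 3 was the lowest in 7 of the 9 genes, and in 9.18% of all tested genes. WT replicate 2 exceeded the median of the other 10 libraries 7.55-fold in Cnn1, 5.13-fold in Myh11, 4.53-fold in Kcnmb1, 4.38-fold in Lmod1, 4.08-fold in Smtn and 2.28-fold in Mylk, against 1.22-fold in Cald1. Without WT replicate 2, the ratio of the highest to the lowest library was still 8.45 for Kcnmb1, 6.25 for Cnn1, 4.996 for Myh11 and 3.19 for Acta2. The 2 HFD libraries differed by 5.86-fold in Cnn1, 4.97-fold in Myh11 and 8.45-fold in Kcnmb1, and by 1.26-fold in Cald1.

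Against the normal diet, the 3 high-fat groups together had lower fitted values for all 8 tested members (Cald1, at -0.04, turned to 0.06 under median-ratio scaling of the libraries), and none passed the test. All differences are on the log2(FPKM + 1) scale, which understates the change of low genes, and come from limma-trend over 1656 genes with Benjamini-Hochberg adjustment. The fitted high-fat value is the mean of the 3 group means, so the groups count equally, whereas the FPKM averages below are over libraries. The members' median was -1.07, beside -0.06 over all tested genes, of which 55.4% had a lower fitted value. At an adjusted p of 0.05, 0 of the 8 members were called, where 0.0604% of all tested genes were. At an unadjusted p of 0.05 it was 4 of 8 (Acta2, Cnn1, Myh11 and Lmod1), where 23.6% of all tested genes passed. Cnn1 averaged 56.0 ± 39.3 FPKM in the 8 high-fat libraries and 227 ± 185 FPKM in the 3 WT libraries (SD), a log2 difference of -1.91 (SE 0.624, limma adjusted p = 0.139). Acta2 averaged 253 ± 106 FPKM in the high-fat libraries and 794 ± 705 FPKM in the WT libraries (SD), a log2 difference of -1.38 (SE 0.51, limma adjusted p = 0.166). In no member did the high-fat libraries lie wholly below the WT libraries, which 2.29% of all tested genes did. Without WT replicate 2 the members' median became -0.57.

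HSAPN against WT gave a members' median of -1.13, beside -0.12 over all tested genes, and 7 of the 8 members had a lower fitted value, as did 57.7% of all tested genes. By limma-trend, 0 of the 8 were called, where 0% of all tested genes were, and 4 of the 8 passed an unadjusted p of 0.05 (Acta2, Cnn1, Myh11 and Lmod1), where 21.7% of all tested genes did. Cnn1 averaged 44.5 ± 20.49 FPKM in HSAPN and 227 ± 185 FPKM in WT (SD, n = 3 each), a log2 difference of -2.10 (SE 0.749, limma adjusted p = 0.168). Myh11 averaged 35.2 ± 8.32 FPKM in HSAPN and 123 ± 98.8 FPKM in WT (SD, n = 3 each), with a log2 difference of -1.51 (SE 0.647, limma adjusted p = 0.221). In Acta2, Myh11, Cnn1, Smtn and Lmod1, 5 of the 8, every HSAPN library was below every WT library, as in 19% of all tested genes. Cald1 had a log2 difference of 0.03 (95% interval -0.36 to 0.41). The median was -0.63 without WT replicate 2.

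HAPN against WT gave a median of -1.05, beside -0.17 over all tested genes, with a lower fitted value for all 8 members and for 62% of all tested genes. By limma-trend, 0 of the 8 were called, where 0% of all tested genes were, and 2 of the 8 (Acta2 and Cnn1) passed an unadjusted p of 0.05, where 22.2% of all tested genes did. Acta2 averaged 238 ± 73.5 FPKM in HAPN and 794 ± 705 FPKM in WT (SD, n = 3 each), a log2 difference of -1.43 (SE 0.612, limma adjusted p = 0.214). Acta2, Cnn1, Lmod1 and Kcnmb1, 4 of the 8, lay wholly below WT, as did 20.4% of all tested genes. The median was -0.47 without WT replicate 2.

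HFD and WT differ in the labelled diet, and in each of the 8 members the 2 HFD libraries differed more from each other than the group means did on the log2 scale. The members' median was -0.94, beside 0.07 over all tested genes, and 7 of the 8 members had a lower fitted value, where 42.5% of all tested genes did. By limma-trend, 0 of the 8 were called, where 0% of all tested genes were, and 0 of the 8 passed an unadjusted p of 0.05, where 11.4% of all tested genes did. Myh11, with the smallest p, had a log2 difference of -1.49 (SE 0.723, limma adjusted p = 0.469). In all 8 members the groups overlapped, and 7.19% of all tested genes lay wholly below WT. The median became -0.12 without HFD replicate 3, -1.9 without the HFD library deposited as replicates 1 and 2, and -0.44 without WT replicate 2. These 4 comparisons share the WT libraries, so their values are not independent of each other.

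**Figure D2:**
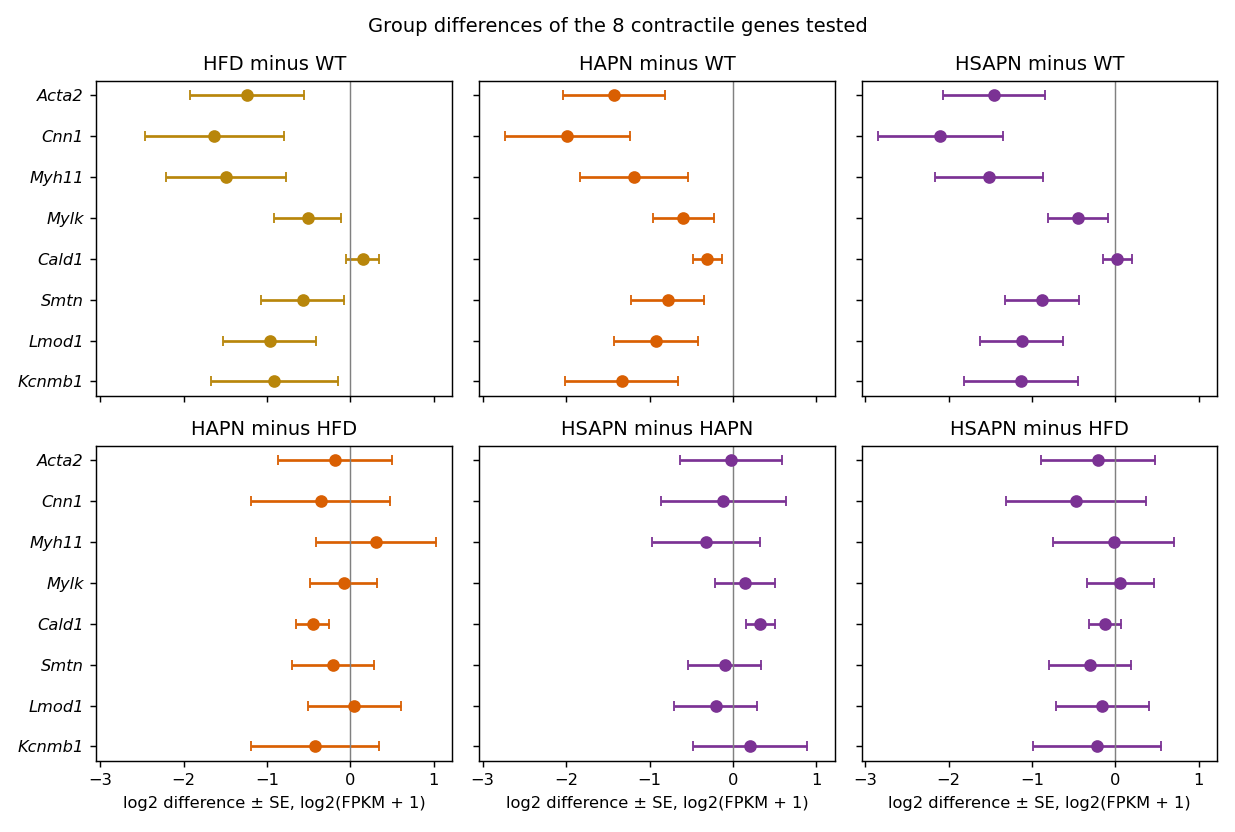
Log2 differences of the 8 tested contractile genes in each comparison, with bars of 1 standard error of the limma-trend fit. Against WT, the points of 7 genes lie between -0.45 and -2.10 in all 3 high-fat groups, those of Cald1 lie between -0.30 and 0.15, and those between the high-fat groups lie on both sides of 0.

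Between the high-fat groups the members' differences were smaller than their errors, apart from Cald1. HSAPN against HAPN, which share the high-fat diet and differ in the labelled genotype, gave a members' median of -0.06, beside 0.02 over all tested genes, with 5 of the 8 lower, where 46.5% of all tested genes were. By limma-trend, 0 of the 8 were called, where 0.121% of all tested genes were, and 0 of the 8 passed an unadjusted p of 0.05, where 7.85% of all tested genes did. The intervals were wide. For Acta2 the log2 difference was -0.03 (95% interval -1.40 to 1.35), and for Cnn1 it was -0.12 (95% interval -1.80 to 1.57). The narrowest was that of Cald1, which averaged 12.6 ± 1.52 FPKM in HSAPN and 9.82 ± 1.10 FPKM in HAPN (SD, n = 3 each), a log2 difference of 0.33 (95% interval -0.06 to 0.72, limma adjusted p = 0.778). Leaving out single libraries moved the members' median between -0.28 (without HSAPN replicate 3) and 0.14 (without HAPN replicate 1), and the differences of Acta2, Cnn1 and Kcnmb1 changed sign in some of these fits. Every HSAPN library was above every HAPN library in Cald1 alone, 1 of the 8, and in 9.96% of all tested genes.

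HAPN against HFD gave a median of -0.20, beside -0.24 over all tested genes, with a lower fitted value for 6 of the 8 members and for 75.1% of all tested genes (Acta2, Smtn and Mylk turned positive under median-ratio scaling). By limma-trend, 0 of the 8 were called, where 0.181% of all tested genes were, and 1 of the 8, Cald1, passed an unadjusted p of 0.05, where 8.64% of all tested genes did. Cald1 averaged 9.82 ± 1.10 FPKM in 3 HAPN libraries and 13.8 ± 2.24 FPKM in 2 HFD libraries (SD), a log2 difference of -0.45 (95% interval -0.89 to -0.02, limma adjusted p = 0.541). It was also the 1 member of the 8 that lay wholly below HFD, as did 19.8% of all tested genes. HSAPN against HFD gave a median of -0.18, equal to that over all tested genes, with 7 of the 8 lower (4 of them, Acta2, Myh11, Cald1 and Lmod1, positive under median-ratio scaling), where 72.9% of all tested genes were, and with 0 of the 8 called by limma-trend, where 0% of all tested genes were. None of the 8 passed an unadjusted p of 0.05, where 3.99% of all tested genes did. In both of these comparisons the members' median turned positive without the HFD library deposited as replicates 1 and 2, to 0.68 for HAPN and 0.62 for HSAPN, and without HFD replicate 3 it was -0.77 for HAPN and -0.99 for HSAPN. Over the 4 groups at once, the F test of limma called 0 of the 8 members, where 0.121% of all tested genes were called, and 0 of the 8 had an unadjusted p under 0.05, where 16.5% of all tested genes did.

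The members differed in how closely they followed each other over the 11 libraries. Across the 21 pairs without Cald1 and Tagln, Pearson r of log2(FPKM + 1) ran from 0.75 to 0.98, with a median of 0.91. These r describe 11 libraries of 4 groups and lean on shared library differences. Without WT replicate 2 the median was 0.83 and the lowest 0.49. The 8 pairs with Cald1 had r from 0.39 to 0.58. The 7 pairs of Tagln with the members other than Cald1 ran from 0.64 to 0.89, and from 0.06 to 0.49 without WT replicate 2. Relative to Acta2 in the same library, Lmod1 held the steadiest proportion, 1.82 to 3.09%, and Myh11 stood at 10.6 to 21.1%. Cald1 ran from 0.884% of Acta2 in WT replicate 2 to 8.37% in HFD replicate 3, and Mylk from 4.004% in WT replicate 2 to 18.1% in HSAPN replicate 1.

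Among 1443 tested genes averaging 1 or more on the log2(FPKM + 1) scale, the 9 whose levels were most like the mean of the 9 members were Myl9, Des, Synpo2, Fbxl22, Mrvi1, Pdlim3, Sh3bgr, Cpxm2 and Tpm2. Their Pearson r with that mean over the 11 libraries was 0.961 to 0.986, and 47 of the 1443 genes, 3.26%, had an r over 0.9. Over the 9 libraries without WT replicate 2 and HFD replicate 3, which lay farthest from the median, these 9 genes had r of 0.85 to 0.97. Myl9, a regulatory light chain of smooth muscle myosin, averaged 137 ± 38.8 FPKM in HSAPN, 156 ± 52.8 in HAPN and 449 ± 356 in WT (SD, n = 3 each), with 266 and 97.9 FPKM in the HFD libraries. Des, the intermediate filament protein desmin, averaged 48.5 ± 13.9 FPKM in HSAPN, 48.8 ± 13.6 in HAPN and 214 ± 207 in WT (SD, n = 3 each), with 150 and 31.4 FPKM in the HFD libraries. Desmin is also made in heart muscle, and it is known to be higher in visceral than in vascular smooth muscle. Tpm2, β-tropomyosin of the thin filament, averaged 26.6 ± 6.20 FPKM in HSAPN, 28.4 ± 6.04 in HAPN and 142 ± 140 in WT (SD, n = 3 each), with 59.5 and 16.8 FPKM in the HFD libraries.

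**Figure D3:**
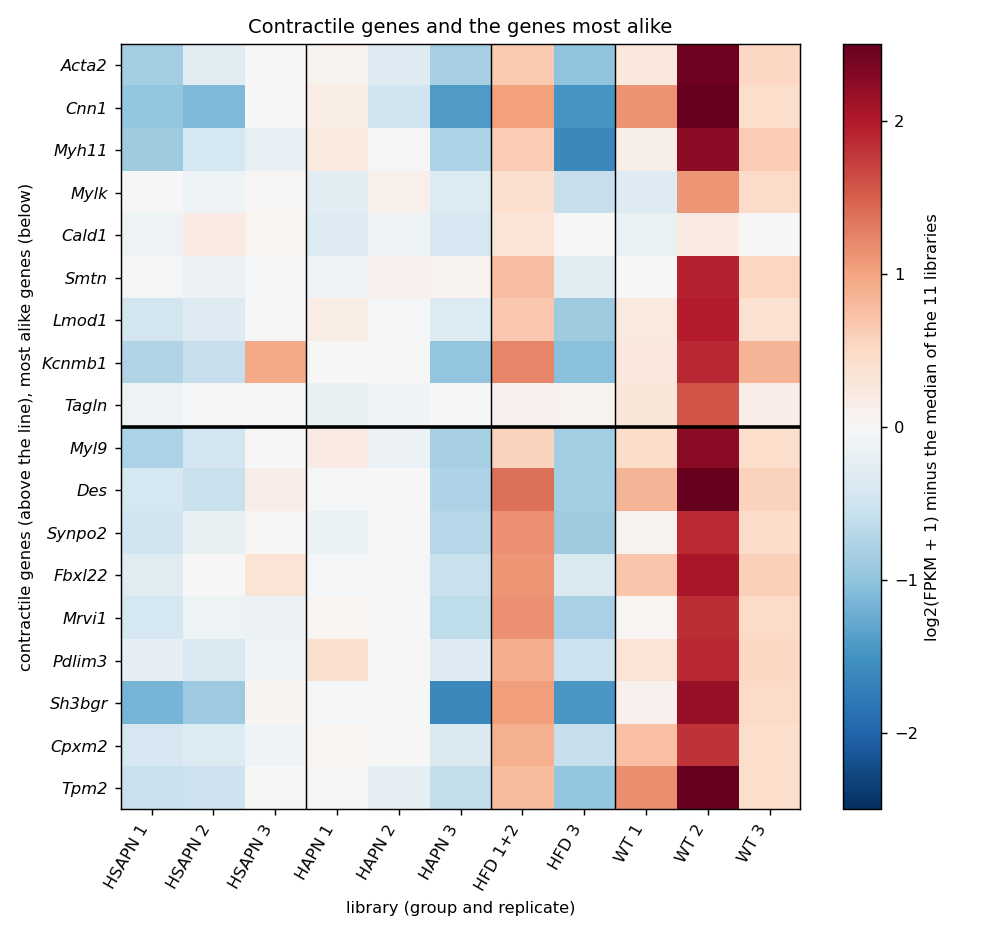
Log2(FPKM + 1) of the 9 contractile genes (above the line) and the 9 most alike genes (below it), as the difference from each gene's median over the 11 libraries, with libraries in columns ordered HSAPN, HAPN, HFD, WT and values beyond the ends of the colour scale in its end colours. The column of WT replicate 2 is high in every row, least so in that of Cald1, and the column of HFD replicate 3 is low in every row but those of Cald1 and Tagln.

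Other genes of the contractile apparatus, from a list of 66 of which 16 were in the table and 14 were tested, had lower medians as well. Fitted values were lower in 13 of 14 for HSAPN against WT, in 13 of 14 for HAPN against WT and in 11 of 14 for HFD against WT, with medians of -0.97, -0.85 and -0.70. Of all tested genes, 57.7%, 62% and 42.5% were lower in the same order, with medians of -0.12, -0.17 and 0.07. These values include WT replicate 2, in which the listed genes summed to 2386 FPKM, against 912 FPKM in the next highest library. By limma-trend none of the 14 was called in any comparison, where 0 to 0.181% of all tested genes were. Among its 6 most abundant genes, Mustn1, a small muscle and bone protein, averaged 37.7 ± 1.74 FPKM in HSAPN, 42.8 ± 4.15 in HAPN and 79.8 ± 35.5 in WT (SD, n = 3 each). Csrp2, a LIM protein of smooth muscle, averaged 24.3 ± 2.54 FPKM in HSAPN, 26.8 ± 7.64 in HAPN and 48.4 ± 14.6 in WT (SD, n = 3 each). Myl6, the essential light chain, which non-muscle cells use as well, averaged 240 ± 23.2 FPKM in HSAPN, 228 ± 12.3 in HAPN and 326 ± 93.3 in WT (SD, n = 3 each). Myl9, Des and Tpm2 complete the 6.

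Genes that act on the contractile programme had no such lower median. Of 46 regulators listed, 10 were in the table and 7 were tested, and Srf and Myocd were not analysed here. Their medians were 0.09 for HSAPN, -0.05 for HAPN and 0.16 for HFD against WT, beside -0.12, -0.17 and 0.07 over all tested genes. None was called by limma-trend, where 0% of all tested genes were. The Notch target Hey1, a repressor, was the most abundant at 29.4 ± 2.42 FPKM in HSAPN, 37.4 ± 12.7 in HAPN and 18.4 ± 7.29 in WT (SD, n = 3 each), with a log2 difference from WT of 0.71 (SE 0.306, limma adjusted p = 0.222) in HSAPN and 0.99 (SE 0.306, limma adjusted p = 0.145) in HAPN. Lmcd1, a LIM protein, averaged 9.76 ± 0.395 FPKM in HSAPN, 8.35 ± 1.19 in HAPN and 8.99 ± 3.13 in WT (SD, n = 3 each). The other regulators in the table were low. Mef2c ran from 1.53 to 3.14 FPKM over the libraries, Prrx1 from 1.12 to 2.49, Hey2 from 0.819 to 1.51, Foxc1 from 0.371 to 3.19, Gata4 from 0.0878 to 3.40, Hand2 from 0.0256 to 2.14, Tbx18 from 0.0242 to 1.64 and Nkx2-3 from 0 to 0.0541 FPKM. Of the 10 regulators, Foxc1 had the highest r with the mean of the members, 0.94 (0.90 without WT replicate 2), and Hey1 the lowest, -0.66.

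Ion channels and receptors of smooth muscle (15 of 54 in the table, 11 tested) had medians of -0.11 for HSAPN, -0.17 for HAPN and 0.08 for HFD against WT. These were near the medians over all tested genes, -0.12, -0.17 and 0.07 in the same order. None was called by limma-trend, where 0% of all tested genes were. The most abundant was Kcnk3, an acid-sensitive background potassium channel, at 5.09 to 13.6 FPKM over the libraries. Rgs4, which quenches G protein signals, stood at 1.92 to 9.02 FPKM, and Kcnj8, the pore of the vascular ATP-sensitive potassium channel, at 2.78 to 9.17 FPKM. Mrvi1, a target of cGMP-dependent kinase in relaxation, stood at 1.31 to 13.8 FPKM, the angiotensin receptor Agtr1a at 2.11 to 5.43 FPKM and the ATP receptor P2rx1 at 1.85 to 7.30 FPKM. Genes known from the synthetic, matrix-making state (9 of 31 in the table, 8 tested) had medians of 0.29 for HSAPN, -0.02 for HAPN and 0.20 for HFD against WT, beside the same -0.12, -0.17 and 0.07 over all tested genes. None of these genes was called by limma-trend, where 0% of all tested genes were. Vim, the most abundant of them, ran from 59.1 to 176 FPKM. The summed FPKM of the synthetic genes had an r of 0.02 with the mean of the contractile members over the 11 libraries, while that of the contractile apparatus had an r of 0.97. The synthetic genes went both ways one by one, from an r of 0.95 in Ereg, which stayed below 1 FPKM, and 0.63 in Dcn to -0.23 in Vim and -0.71 in Mmp3.

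Markers of other tissues varied together with the members. The 3 of 18 airway epithelium markers in the table, Bpifa1, Ltf and Tff2, summed to 42.6 to 1517 FPKM in HSAPN, 7.40 to 4200 in HAPN, 11.5 and 6870 in HFD, and 341 to 11866 in WT, where the highest was WT replicate 2. The 4 of 20 heart muscle markers, led by Cox6a2, Tnni3 and Myl4, summed to 33.9 to 254 FPKM in HSAPN, 21.8 to 210 in HAPN, 15.2 and 628 in HFD, and 58.0 to 429 in WT. The 11 of 12 white adipocyte markers, led by Cfd, Car3 and Lipe, summed to 40.2 to 117 FPKM in HSAPN, 23.2 to 296 in HAPN, 29.1 and 1590 in HFD, and 105 to 1098 in WT. In all 3 sums the lowest 2 libraries were HAPN replicate 3 and HFD replicate 3, which were also the lowest 2 in the mean of the members. The r of these sums with the mean of the members over the 11 libraries was 0.82 for airway, 0.78 for heart muscle and 0.70 for white adipocytes, and 0.88, 0.89 and 0.90 in the same order without WT replicate 2. Single markers of airway and heart muscle had r of 0.68 to 0.85 with the mean of the members. Of the 11 white adipocyte markers, 9 had a positive r, up to 0.75 in Cfd, and 2 a negative one, Lipe (-0.24) and Slc7a10 (-0.38). The part of these markers in the members' differences was not tested.

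**Figure D4:**
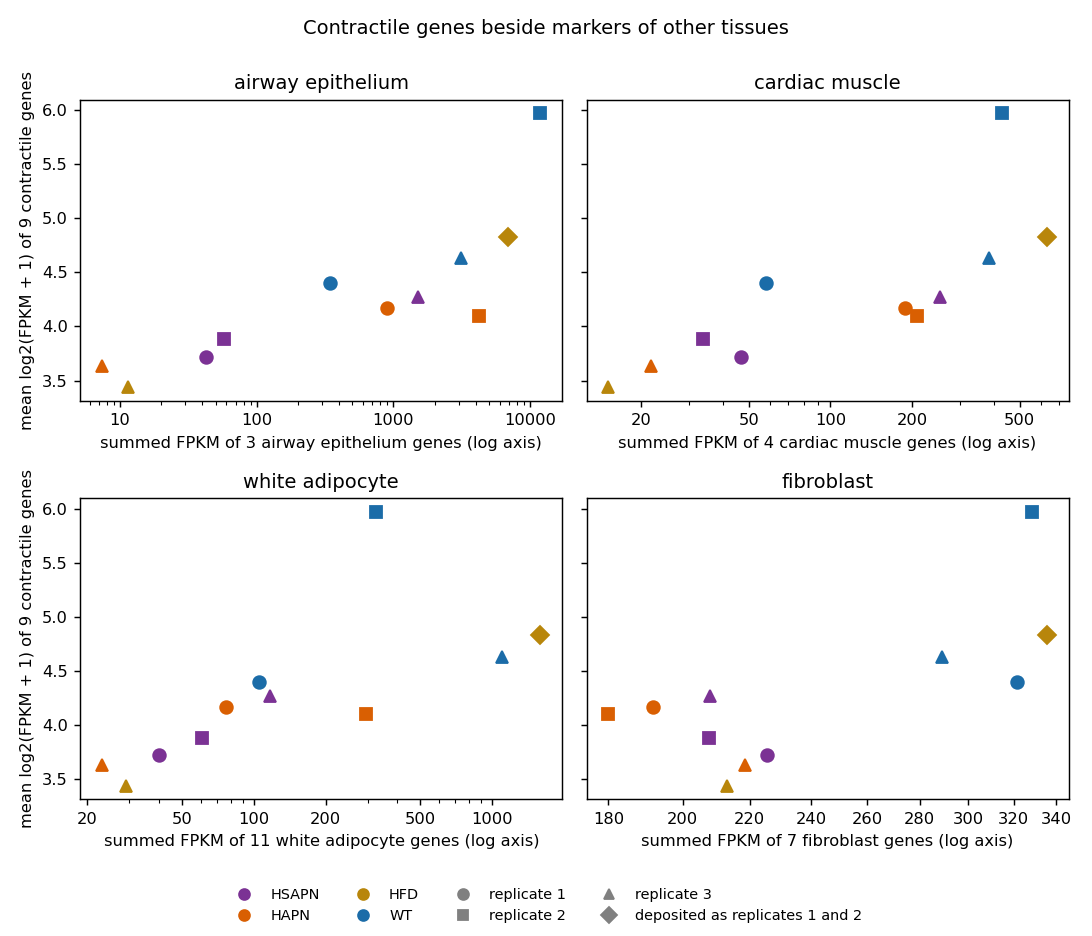
Mean log2(FPKM + 1) of the 9 contractile genes against the summed FPKM, on a log axis, of markers of airway epithelium, heart muscle, white adipocytes and fibroblasts, with 1 point per library, colours for groups and shapes for replicates. HFD replicate 3 and HAPN replicate 3 are the lowest in the contractile mean and in the sums of airway, heart muscle and fat, and the fibroblast sum separates the WT libraries and 1 HFD library, at 289 to 335 FPKM, from the other 7, at 180 to 225 FPKM.

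Fibroblast markers (7 of 14 in the table, led by Clec3b, Dpt and Dcn) summed to 208 to 225 FPKM in HSAPN, 180 to 218 in HAPN, 213 and 335 in HFD, and 289 to 328 in WT, with an r of 0.71 with the mean of the members. Dpt went the other way, with an r of -0.11, and the other fibroblast markers had r of 0.61 to 0.80. Of the further lists, the squamous keratin Krt15 (1 of 10 markers) had an r of 0.88 and peaked at 151 FPKM in WT replicate 2, pericyte markers (3 of 10) had an r of 0.83, neuronal markers (11 of 12) 0.72 and brown adipocyte markers (8 of 10) 0.68. The lowest single r was -0.26 in Ret among the neuronal markers and 0.01 in Letmd1 among the brown adipocyte markers. The 3 pericyte markers, Rgs5, Kcnj8 and Abcc9, are also in the list of ion channels and receptors of smooth muscle. Erythrocyte markers (10 of 14), which summed to 3201 to 4918 FPKM in HSAPN and 425 to 3238 FPKM in WT, ran the other way with an r of -0.54, or -0.11 without WT replicate 2. Among them Fech had a positive r, 0.29. The sums of endothelial (Mmrn2 alone), platelet, cartilage and macrophage markers had r of -0.36, -0.32, -0.21 and -0.05. The cartilage markers went both ways, with Cytl1 at -0.22 and Col11a2 at -0.29. Acan, Cnmd and Comp, each below 1 FPKM in every library, had r of 0.77, 0.71 and 0.55. Of the macrophage markers, Cd163 (0.32) and C1qb (0.03) had a positive r. Skeletal muscle markers (Acta1 and Myh1, 2 of 14) summed to 6.02 FPKM in 1 HFD library and to less than 1 FPKM in each of the others, and the 7 mesothelial markers listed were not analysed here. The part of any of these in the members' differences was not tested.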

How the data were processed

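Values were deposited by the authors as FPKM per gene symbol, 1 file per sample. Per the submitters' processing notes, featureCounts 1.5.0-p3, DESeq 1.8.3 and GRCm38 were used, with no role given. Per the labels' protocols, total RNA came from a TRIzol extraction and the library kit keeps strand. Not given in the sources used here are the aligner, the annotation, the strand setting and the rule that chose the listed genes.

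With exonic lengths of GENCODE M21 and 15610000 to 17840000 reads per library, 96.1 to 97.2% of values worth at most 20 reads came out whole (tolerance 0.1). A TPM scaling would give the same result. The symbol listed 2 times and 4 symbols turned into dates were left out, which left 3528 genes, of which 3407 matched 1 GENCODE gene. HFD replicates 1 and 2 entered as 1 library.

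Genes with at least 1 FPKM in 3 of the 11 libraries (1656) were tested on log2(FPKM + 1) with limma-trend (limma 3.58.1, R 4.3.3) in 1 fit of 4 group means with 7 residual degrees of freedom, and p-values were adjusted over all of them by Benjamini-Hochberg and called at 0.05. The script was tested on simulated data. Alternatives were no filter, a filter of 5 FPKM, a pseudocount of 0.1, median-ratio scaling, the replicate number as a block, the identical HFD files counted as 2, the compared groups alone, and each library left out. Tables and figures used Python 3.11.15, pandas 2.3.3, NumPy 2.4.6 and matplotlib 3.10.9.

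All members were named, with every listed regulator in the table, the 6 most abundant apparatus and channel genes, up to 3 markers per tissue list, and the 10 genes with the highest r with the members' mean, of which 1 is not reported here. Vim, Ereg, Mmp3, Slc7a10, Acan, Cnmd, Cd163 and Fech were named after their values were seen. The members and lists were chosen with earlier results of these data known.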

Additional observations from a re-analysis of the deposited data

How the results depend on the processing

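None of the 8 tested contractile genes was called by limma in any comparison under any of the 18 alternative settings, 109 values in all, and 687 alternative values of single members kept their direction while 49 changed sign. Numbers of genes called over the whole table did move. Counts for HFD, HAPN and HSAPN against WT and for the high-fat groups against WT were 0, 0, 0 and 1, for HAPN against HFD, HSAPN against HAPN and HSAPN against HFD they were 3, 2 and 0, and for the F test 2. Without the filter they became 2 for HFD against WT, 2 for HAPN against WT, 3 for the high-fat groups, 2 for HSAPN against HFD and 0 for HSAPN against HAPN. A filter of 5 FPKM gave 6 for HAPN against WT, 0 for the high-fat groups and 1 for the F test, and a pseudocount of 0.1 gave 0 for the high-fat groups. Counting the identical HFD files as 2 gave 4, 16, 1 and 3 for HFD, HAPN, HSAPN and the high-fat groups against WT, 9 for HAPN against HFD, 1 for HSAPN against HFD and 7 for the F test. Fitting the compared groups alone gave 0 for HAPN against HFD, 0 for HSAPN against HAPN and 1 for HSAPN against HFD. Median-ratio scaling gave 17 for HAPN against WT, 5 for HAPN against HFD, 0 for the high-fat groups and 4 for the F test. It shifted the median of all tested genes by 0.17 for HAPN against WT, 0.13 for HSAPN against WT, 0.23 for HAPN against HFD and 0.19 for HSAPN against HFD on the log2 scale. Under it the log2 differences that changed sign were those of HAPN against HFD in Acta2 (0.10), Smtn (0.06) and Mylk (0.19), of HSAPN against HFD in Acta2 (0.02), Myh11 (0.21), Cald1 (0.10) and Lmod1 (0.06), and of the high-fat groups against WT in Cald1 (0.06). Counting the HFD files as 2 reversed Myh11 (-0.07) and Lmod1 (-0.21) in HAPN against HFD and Mylk (-0.10) in HSAPN against HFD. The cause of these changes was not tested.

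Whether the replicate numbers pair the libraries could not be decided from the values. Same-numbered libraries of different groups had correlations of their deviations from the group mean of -0.59 to 0.50 (15 pairs). Other pairs ran from -0.59 to 0.59 (30 pairs), and 2 of 11 libraries correlated best with their own number. Deviations within such small groups depend on each other, and those of the 2 HFD libraries are mirror images. The HFD library deposited as replicates 1 and 2 was counted as number 1. With the replicate number as a block the counts were 1 for HAPN against WT, 0 for HAPN against HFD and 1 for the F test, and Lmod1 in HAPN against HFD (-0.13) and Mylk in HSAPN against HFD (-0.09) changed sign.

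Leaving out each library in turn gave 0 to 28 genes called for HFD against WT, 0 to 177 for HAPN, 0 to 157 for HSAPN and 0 to 244 for the high-fat groups against WT, with the highest counts without WT replicate 3. It gave 0 to 6 for HAPN against HFD and 0 to 3 for HSAPN against HFD, both highest without HFD replicate 3, 0 to 3 for HSAPN against HAPN, highest without HAPN replicate 3, and 0 to 52 for the F test, highest without WT replicate 3. The members' median ran from -1.9 to -0.12 for HFD (-1.28 without WT replicate 1), from -1.43 to -0.47 for HAPN, from -1.47 to -0.63 for HSAPN and from -1.4 to -0.57 for the high-fat groups against WT, from -0.77 to 0.68 for HAPN against HFD, from -0.28 to 0.14 for HSAPN against HAPN and from -0.99 to 0.62 for HSAPN against HFD. Single members changed sign in some of these fits. The lowest values against HFD come without HFD replicate 3 and the highest without the HFD library deposited as replicates 1 and 2. In HAPN against HFD the ranges were -1.02 to 0.65 for Acta2, -1.61 to 0.90 for Cnn1, -1.56 to 0.71 for Kcnmb1, -0.73 to 0.82 for Lmod1, -0.81 to 1.43 for Myh11 (0.61 without HAPN replicate 3), -0.57 to 0.40 for Mylk and -0.73 to 0.31 for Smtn. In HSAPN against HFD they were -1.04 to 0.62 for Acta2, -1.72 to 0.78 for Cnn1, -1.36 to 0.92 for Kcnmb1 (0.09 without HSAPN replicate 1), -0.93 to 0.62 for Lmod1, -1.14 to 1.10 for Myh11, -0.42 to 0.55 for Mylk, -0.83 to 0.21 for Smtn and -0.28 to 0.03 for Cald1. In HSAPN against HAPN they were -0.26 to 0.21 for Acta2, -0.53 to 0.26 for Cnn1 and -0.34 to 0.52 for Kcnmb1. Against WT they were -0.01 to 0.30 for Cald1 and -2.05 to 0.23 for Kcnmb1 in HFD (-1.28 without WT replicate 1), -0.06 to 0.12 for Cald1 in HSAPN and -0.13 to 0.05 for Cald1 in the high-fat groups. Where 1 library was left in HFD, it was assumed to vary like those of the other groups. Depth limits Tagln most, with 9 to 118 reads per library.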
